A study of Mus musculus with 6 samples.

Results

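Hypoxia-inducible factor (HIF) and 8 of its non-glycolytic target genes were followed in mouse CD4 T cells grown in Treg-polarizing cultures. The 10 genes were *Hif1a*, *Arnt*, *Egln1*, *Egln3*, *Vegfa*, *Bnip3*, *Bnip3l*, *Ankrd37*, *P4ha1* and *Kdm3a*. They were chosen by name, as *Hif1a*, its partner subunit and established targets, with earlier results of these data known. All 10 of 10 were found among the 56748 genes of the count table. The study asked how phosphoglycerate mutase (PGAM), an enzyme of glycolysis, acts in Treg differentiation. All cells came from wild-type (WT) C57BL/6 mice of 6 to 10 weeks, from which naïve CD4 cells of spleen and lymph nodes were isolated. They were stimulated in the presence of IL-2 and TGF-β with antibodies against IFNγ and IL-4, and RNA was sequenced from the whole culture, without sorting, after 72 hr (day 3). The cultures differed in the antisense oligonucleotide (ASO), given at 10 μM from the start: 3 libraries are labelled scrambled ASO, a control with no intended target, and 3 are labelled *Pgam* ASO.

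HIF-1 is a transcription factor made of an oxygen-sensitive subunit, HIF-1α (*Hif1a*), and a stable partner, ARNT. When oxygen is present, prolyl hydroxylases such as EGLN1 and EGLN3 mark HIF-1α for the VHL ubiquitin ligase and the proteasome, so that its protein can change without a change in its mRNA. When the protein is stable, the dimer binds short DNA elements and turns on genes for glycolysis, angiogenesis, mitophagy and protein hydroxylation, among them *Egln3* itself, and in T cells HIF-1α is known to favor glycolysis and Th17 over Treg differentiation.

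The scrambled ASO libraries held 17588755, 18032805 and 16231127 counts in all (replicates 1, 2 and 3), and those with the *Pgam* label 16589933, 15860476 and 16803881. At this depth a floor of 3 counts amounts to between 0.166 and 0.189 CPM (counts scaled to a library total of 1000000), which covers counting error only, and every member lay above it in each library. Libraries differed within both labels: the chi-square per degree of freedom between a pair, near 1 for counting noise alone, ran from 7.39 to 27.1 among scrambled libraries and from 7.66 to 20.1 among those labelled *Pgam* ASO. Of the latter, replicate 3 lay nearest to the scrambled libraries. Of the 14936 genes with enough counts to be tested, replicate 3 labelled *Pgam* ASO fell within the range of the 3 scrambled libraries for 5654, against 3743 for replicate 1 and 4438 for replicate 2. Leaving it out raised the genes called in edgeR from 2565 to 3319, and leaving out replicate 3 labelled scrambled ASO raised them to 3484. The paper calls the replicates biological, but the labels do not say whether they came from separate animals, so p-values measure the spread between these cultures.

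The targeted genes were examined first, since they check the labels. *Pgam1* was measured at 600, 478 and 707 CPM in scrambled replicates 1, 2 and 3 and at 658, 661 and 707 CPM with the *Pgam* label (log2 fold change 0.18, standard error (SE) 0.13, edgeR adjusted p = 0.331). With 1 library left out its log2 fold change ran from 0.047 (without replicate 2 labelled scrambled ASO) to 0.33 (without replicate 3 of that label, edgeR adjusted p = 0.0528, over all leave-one-out fits between 0.0528 and 0.793). *Pgam2*, the muscle form of the enzyme, stood at 5.23, 6.75 and 2.85 CPM against 2.98, 2.69 and 2.60 CPM (log2 fold change -0.84, SE 0.31, edgeR adjusted p = 0.0854). Neither mRNA passed the threshold of 0.05 in edgeR with all libraries and its default filter. *Pgam2* did with no filter on low counts (log2 fold change -0.83, edgeR adjusted p = 0.0292, over the settings with all libraries between 0.0292 and 0.134) and without replicate 3 labelled scrambled ASO (log2 fold change -1.11, edgeR adjusted p = 0.0144, over all leave-one-out fits between 0.0144 and 0.286). The groups are therefore called by their labels, and any direction given here is one between labels. By flow cytometry the paper reports less PGAM1 protein with *Pgam* ASOs than with scrambled ASOs. From its RNA sequencing it reports lower *Foxp3* with *Pgam* ASOs, the direction that the labels give below.

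Cells in these cultures also differed by label in other genes, whose relation to HIF was not tested. *Foxp3*, which encodes the transcription factor that defines Tregs, was at 282, 371 and 222 CPM with scrambled ASO and at 89.7, 109 and 131 CPM with the *Pgam* label, where every library lay below every scrambled one. Mitochondrially encoded transcripts held 1.95%, 2.12% and 1.93% of counts in the scrambled libraries and 1.24%, 1.44% and 1.32% in the others, again without overlap. All 8 markers of CD4 T cells were tested and edgeR called 2 lower, *Cd28* (log2 fold change -0.66) and *Cd5* (log2 fold change -0.49). Of all 14936 tested genes it called 9.15% lower. *Cd3e*, *Cd3d* and *Cd3g* were lower without overlap (log2 fold changes -0.37, -0.27 and -0.34) but were not called. *Lck* (log2 fold change 0.068) and *Cd2* (log2 fold change 0.025) overlapped between labels and were not called. *Cd5* lost its call in edgeR without replicate 1 labelled scrambled ASO (adjusted p = 0.0678) or replicate 2 labelled *Pgam* ASO (adjusted p = 0.106). The list summed to 3262, 3430 and 3090 CPM against 2731, 2750 and 2817 CPM, and its most abundant gene, *Cd4*, ran from 732 to 804 CPM against 650 to 697 CPM.

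Markers of other cells were low or not specific to them. Of the mast cell and basophil list only *Cpa3* of 4 genes had enough counts, and the list summed to 1.07, 1.89 and 1.36 CPM with scrambled ASO and 4.10, 3.98 and 2.96 CPM with the *Pgam* label. *Cpa3* was higher without overlap (log2 fold change 1.09) and just missed the threshold in edgeR (adjusted p = 0.0526, over the settings with all libraries between 0.0399 and 0.0873). It passed with DESeq2, limma-voom, no filter or a minimum of 10 counts, and in edgeR without replicate 2 labelled scrambled ASO (adjusted p = 0.0415). *Cd8a*, 1 of the 2 genes in the CD8 list, was called higher at 2.48, 3.08 and 2.23 CPM against 7.02, 3.66 and 6.27 CPM, a call that edgeR did not make without replicate 1 of either label (log2 fold change 1.08 and 0.94 in place of 1.12) or with replicate number as a block (adjusted p = 0.0699). The more abundant *Cd8b1* was not called (log2 fold change -0.20), and the sum of both overlapped between labels, at 11.3, 13.5 and 10.8 CPM against 14.6, 10.9 and 15.7 CPM. In the stromal list of 4, *Pecam1*, which T cells can also express, was called lower (log2 fold change -1.39), but not without replicate 1 or 2 of either label (log2 fold change between -1.47 and -1.01, edgeR adjusted p between 0.0566 and 0.132), nor with no filter (adjusted p = 0.154) or replicate number as a block (adjusted p = 0.0728), while *Cdh5* was at or near 0, with at most 0.0563 CPM. None of the 4 B cell or 3 tested myeloid markers was called, no NK marker reached the counts needed, with *Klrb1c* at 0 in every library, and the erythroid list summed to at most 1.78 CPM, with *Hba-a2* at 0. Since these are bulk samples, fewer cells of a type and less RNA per cell cannot be told apart. The part of these differences in the results on HIF targets was not tested.

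Most of the 8 targets among the members were lower in replicates 1 and 2 labelled *Pgam* ASO, while replicate 3 lay near the scrambled libraries, and *Hif1a* itself was not lower. All 10 members had enough counts to be tested. With 3 libraries a label, edgeR's quasi-likelihood test called 1 of the 10 lower (*Kdm3a*) and 0 higher at an adjusted p under 0.05, where it called 9.15% of all 14936 tested genes lower, 8.03% higher and 17.2% in either direction. At an unadjusted p under 0.05 in edgeR, 5 members were lower and 0 higher, beside 2650 and 2564 of all 14936 tested genes. DESeq2 called 5 lower and 0 higher (of all tested genes 1659 and 1554), and limma-voom 2 lower and 0 higher (1351 and 1171). The labels did not overlap for 5 of the 10 members, all lower, a pattern seen in 19.8% of tested genes for lower and 19.6% for higher values. The median log2 fold change of the members was -0.39, beside -0.0061 over all tested genes. A negative value was found for 9 of 10, beside 7558 of all 14936 tested genes. Without replicate 3 labelled *Pgam* ASO, edgeR called 5 members lower and the median was -0.58, in a fit that called 1743 genes lower and 1576 higher of 15464 tested. Without any one of replicates 1 and 2 of either label it called 0, and the median without replicate 1 labelled *Pgam* ASO was -0.26. Over all tested genes those 4 fits called fewer genes as well: of 2565 with all libraries, 620 without replicate 1 and 1256 without replicate 2 labelled scrambled ASO, and 871 without replicate 1 and 391 without replicate 2 labelled *Pgam* ASO.

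**Figure D1:**
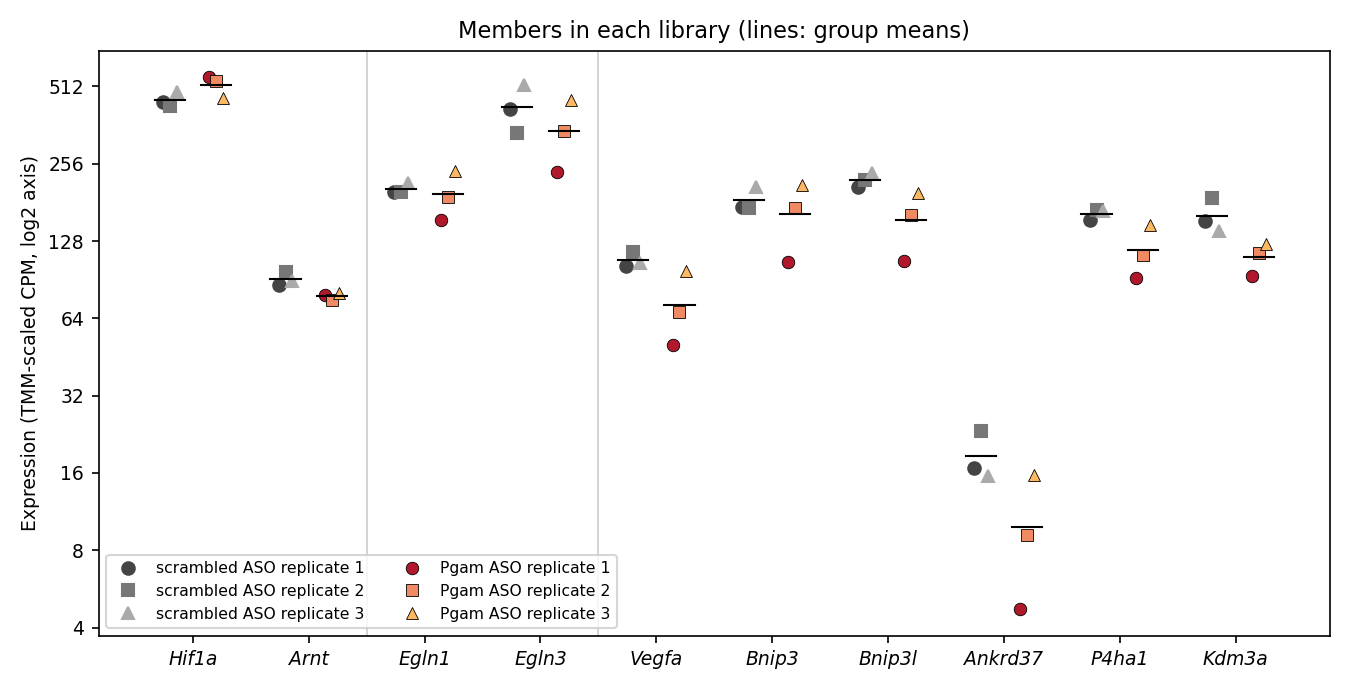
Expression of the 10 members in each library, in CPM scaled by the trimmed mean of M-values on a log2 axis, with grey symbols for the 3 scrambled ASO libraries, colored symbols for the 3 libraries labelled Pgam ASO and horizontal lines for group means. Vertical lines set apart the subunits, the oxygen sensors and the other targets. In 8 of the 10 genes replicate 1 labelled Pgam ASO is the lowest of all libraries, as for Ankrd37 at 4.72 CPM.

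Of the subunits, *Hif1a* (ENSMUSG00000021109, chromosome 12 from 73901375 to 73947530, plus strand) encodes the oxygen-sensitive one. Its level was 444, 431 and 489 CPM in replicates 1, 2 and 3 with scrambled ASO, and 555, 537 and 461 CPM with the *Pgam* label. Replicates 1 and 2 with the *Pgam* label lay above all scrambled libraries and replicate 3 lay among them, so the labels overlapped. The mean was 455 ± 30.3 CPM with scrambled ASO and 518 ± 50.1 CPM with the *Pgam* label (± SD, n = 3 each). Its log2 fold change, 0.19 with an SE of 0.095, did not pass (edgeR adjusted p = 0.188), and no alternative called it. *Hif1a* overlaps the antisense gene *Gm15283* over 330 bases and has 6.72% of its sequence, counted in stretches of 31 bases, in common with other genes. Whether the counting used strand is not given in the sources used here, so reads from the shared bases cannot be told apart.

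*Arnt* (ENSMUSG00000015522, chromosome 3 from 95434388 to 95497240, plus strand), the partner subunit, stood at 86.0, 97.1 and 89.7 CPM with scrambled ASO and 78.9, 75.3 and 80.2 CPM with the *Pgam* label. Every library with the *Pgam* label was below every scrambled one, and unlike the targets the 3 lay close together. The log2 fold change was -0.22 (SE 0.083), which did not pass (edgeR adjusted p = 0.0904). The log2 ratio of *Hif1a* over *Arnt* within a library was 2.37, 2.15 and 2.45 with scrambled ASO and 2.81, 2.83 and 2.52 with the *Pgam* label. It was higher in each library of the second group than in any of the first, by 0.40 between group means (SD 0.15 and 0.17, n = 3 each, exact two-sided permutation p = 0.1). That is the smallest p that 3 against 3 can give.

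The oxygen sensors did not separate the labels. *Egln1* (ENSMUSG00000031987, chromosome 8 from 124908587 to 124949324, minus strand) encodes PHD2, the main prolyl hydroxylase that acts on HIF-1α. It was at 198, 199 and 214 CPM with scrambled ASO and at 155, 190 and 240 CPM with the *Pgam* label. The latter 3 spread to both sides of the scrambled range, replicate 1 and replicate 2 below it and replicate 3 above it. The log2 fold change was -0.062 (SE 0.14, edgeR adjusted p = 0.781), and it was 0.082 without replicate 1 labelled *Pgam* ASO.

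*Egln3* (ENSMUSG00000035105, chromosome 12 from 54178981 to 54203860, minus strand) encodes PHD3, a hydroxylase that is itself induced by HIF. Its expression was 419, 339 and 521 CPM against 238, 344 and 452 CPM. Only replicate 1 labelled *Pgam* ASO lay below the scrambled range, which was itself wide. The mean was 426 ± 91.3 CPM and 345 ± 107 CPM (± SD, n = 3 each), and the log2 fold change was -0.31 (SE 0.25, edgeR adjusted p = 0.425). Leaving out replicate 1 with the *Pgam* label gave -0.096, and leaving out replicate 3 gave -0.55 (edgeR adjusted p = 0.104, over all leave-one-out fits between 0.104 and 0.781). The log2 ratio of *Egln3* over *Egln1* was 1.08, 0.77 and 1.28 with scrambled ASO and 0.62, 0.85 and 0.91 with the *Pgam* label. These values overlapped and differed by -0.25 between means (exact two-sided permutation p = 0.3, n = 3 each).

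A pair of members encode enzymes that demethylate histones or hydroxylate collagen. *Kdm3a* (ENSMUSG00000053470, chromosome 6 from 71588972 to 71632990, minus strand), a histone H3 lysine demethylase that uses oxygen, was at 154, 189 and 139 CPM with scrambled ASO and 93.3, 115 and 124 CPM with the *Pgam* label. All 3 of the latter were below all 3 of the former, and replicate 3 was the highest of them. Means were lower by 30.9% in the model, at 161 ± 25.5 CPM against 111 ± 15.8 CPM (± SD, n = 3 each; log2 fold change -0.53, SE 0.13, edgeR adjusted p = 0.0270). The call was lost without replicate 1 (adjusted p = 0.0747) or replicate 2 (adjusted p = 0.0569) labelled scrambled ASO, and without replicate 1 (adjusted p = 0.0863) or replicate 2 (adjusted p = 0.103) labelled *Pgam* ASO, all in edgeR. In these fits the log2 fold change ran from -0.57 to -0.40.

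*P4ha1* (ENSMUSG00000019916, chromosome 10 from 59323296 to 59373304, plus strand) encodes the catalytic subunit of collagen prolyl 4-hydroxylase. Its values were 155, 168 and 167 CPM against 91.8, 113 and 148 CPM. The groups did not overlap, but the highest library with the *Pgam* label lay just under the lowest scrambled one. With all libraries the log2 fold change was -0.47 (SE 0.15) and missed the threshold (edgeR adjusted p = 0.0552). Without replicate 3 labelled *Pgam* ASO it was -0.67 and passed (edgeR adjusted p = 0.00564, over all leave-one-out fits between 0.00564 and 0.177). With all libraries *P4ha1* was called lower by DESeq2 (adjusted p = 0.0184) and limma-voom (adjusted p = 0.0460). In edgeR it passed with no filter (adjusted p = 0.000138) or with replicate number as a block (adjusted p = 0.0497).

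Promoter windows were taken for the members from RefSeq (build GRCm38.p6), each 250 bases before to 50 bases after an annotated start, and 9 of the 10 members had one, with no entry for *Bnip3l*. The core letters of the hypoxia response element, ACGTG and GCGTG, were searched on both strands, where CACGTG holds ACGTG on each strand and counts 2 matches. At least 1 match was found for 9 of 9 members, in 9 of their 12 windows, beside 43.8% of all 32851 windows in the table (19.6% for ACGTG, 32.4% for GCGTG). At least 3 matches, as in *P4ha1*, *Bnip3*, *Ankrd37* and *Hif1a*, were present in 8.93% of all windows. The windows below set a pair of members whose labels did not overlap (*Kdm3a*, *P4ha1*) beside a pair whose labels did (*Bnip3*, *Ankrd37*), with matches in capitals, and are written 5′ to 3′ on the strand of the gene. *Kdm3a* (chr6:71632868-71633167, minus strand) has 1 match, which begins 27 bases before the start, and 2 further windows of the gene have 0. *P4ha1* (chr10:59323046-59323345, plus strand) has 3, beginning 163, 126 and 16 bases before it. *Bnip3* (chr7:138909457-138909756, minus strand) has 5 and *Ankrd37* (chr8:45999801-46000100, minus strand, at a start inside the annotated gene) has 4. The number of matches did not order these genes by their difference between labels, and a match describes letters, not binding.
Kdm3a: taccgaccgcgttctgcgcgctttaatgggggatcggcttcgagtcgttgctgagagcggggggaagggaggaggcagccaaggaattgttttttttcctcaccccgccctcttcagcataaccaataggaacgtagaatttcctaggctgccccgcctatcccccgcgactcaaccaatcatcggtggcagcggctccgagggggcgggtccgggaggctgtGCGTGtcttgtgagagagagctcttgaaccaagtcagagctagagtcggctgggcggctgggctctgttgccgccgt
P4ha1: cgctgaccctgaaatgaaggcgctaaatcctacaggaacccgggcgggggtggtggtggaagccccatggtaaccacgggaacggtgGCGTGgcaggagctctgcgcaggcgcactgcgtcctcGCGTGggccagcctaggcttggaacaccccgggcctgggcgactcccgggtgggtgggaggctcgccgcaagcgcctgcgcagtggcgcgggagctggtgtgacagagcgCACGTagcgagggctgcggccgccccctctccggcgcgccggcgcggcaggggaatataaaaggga
Bnip3: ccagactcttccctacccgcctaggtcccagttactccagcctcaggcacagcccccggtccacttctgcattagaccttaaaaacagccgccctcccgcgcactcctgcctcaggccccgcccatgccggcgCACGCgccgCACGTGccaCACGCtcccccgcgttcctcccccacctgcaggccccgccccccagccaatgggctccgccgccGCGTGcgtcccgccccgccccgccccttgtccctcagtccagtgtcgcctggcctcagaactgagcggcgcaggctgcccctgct
Ankrd37: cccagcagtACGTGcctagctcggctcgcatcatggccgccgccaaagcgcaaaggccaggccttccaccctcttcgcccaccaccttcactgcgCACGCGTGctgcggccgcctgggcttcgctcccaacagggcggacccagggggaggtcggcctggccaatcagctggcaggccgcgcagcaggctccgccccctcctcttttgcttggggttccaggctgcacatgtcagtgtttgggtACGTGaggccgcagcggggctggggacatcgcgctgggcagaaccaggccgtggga

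*Vegfa* (ENSMUSG00000023951, chromosome 17 from 46016993 to 46032369, minus strand) encodes the angiogenic growth factor VEGF-A. It was measured at 102, 116 and 105 CPM in the scrambled libraries and at 50.4, 67.6 and 98.2 CPM in those labelled *Pgam* ASO. All 3 of the second group were lower, replicate 3 by a small margin. The log2 fold change of -0.58 (SE 0.21, edgeR adjusted p = 0.0965) became -0.86 without that replicate (edgeR adjusted p = 0.00399, over all leave-one-out fits between 0.00399 and 0.321), and -0.37 without replicate 1 labelled *Pgam* ASO. With all libraries *Vegfa* was called lower by DESeq2 (adjusted p = 0.0194) and by edgeR with no filter (adjusted p = 0.000102). It was not called by limma-voom (adjusted p = 0.0518) or by edgeR with replicate number as a block (adjusted p = 0.0565). Its window at the outer start had 0 matches to the letters above and that at an inner start had 2.

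The mitophagy receptors BNIP3 and NIX are related proteins encoded by *Bnip3* and *Bnip3l*. *Bnip3* (ENSMUSG00000078566, chromosome 7 from 138890836 to 138909519, minus strand) was at 174, 172 and 208 CPM with scrambled ASO and 106, 172 and 212 CPM with the *Pgam* label. Only replicate 1 of the second group was low, and replicate 3 was the highest of all 6 libraries. The log2 fold change was -0.17 (SE 0.23, edgeR adjusted p = 0.636), and 0.064 without that low library. Of its 31-base stretches, 57.0% also occur in other genes, most of them in *AC160336.1*, which had 23 counts over all libraries.

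*Bnip3l* (ENSMUSG00000022051, chromosome 14 from 66985239 to 67008877, minus strand) stood at 208, 222 and 236 CPM against 107, 162 and 196 CPM. The labels did not overlap, with replicate 1 labelled *Pgam* ASO far below and replicate 3 close to the scrambled range. The log2 fold change was -0.52 (SE 0.19, edgeR adjusted p = 0.0961), which was -0.72 without replicate 3 (edgeR adjusted p = 0.0150, over all leave-one-out fits between 0.0150 and 0.296) and -0.31 without replicate 1. Summed with its pseudogene *Bnip3l-ps*, which shares 23.7% of its stretches and had 1419 counts, it was again -0.52. DESeq2 called *Bnip3l* lower with all libraries (adjusted p = 0.0248), while limma-voom did not (adjusted p = 0.0608). In edgeR *Bnip3l* passed with no filter (adjusted p = 5.94e-05) or with replicate number as a block (adjusted p = 0.0483). The log2 ratio of *Bnip3* over *Bnip3l* was -0.26, -0.37 and -0.18 with scrambled ASO and -0.014, 0.093 and 0.11 with the *Pgam* label. In all 3 libraries of the second group the ratio was above that in the first, by 0.33 between means (SD 0.095 and 0.068, n = 3 each, exact two-sided permutation p = 0.1, the smallest possible), so that within a library *Bnip3l* was the lower of the pair relative to scrambled ASO.

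*Ankrd37* (ENSMUSG00000050914, chromosome 8 from 45996902 to 46005707, minus strand) encodes a small ankyrin repeat protein that is strongly induced in hypoxia. Without regard to length its levels were the lowest of the members, at 16.7, 23.3 and 15.6 CPM with scrambled ASO and 4.72, 9.17 and 15.7 CPM with the *Pgam* label. Replicates 1 and 2 with the *Pgam* label were below all scrambled libraries, and replicate 3 matched the lowest of them. Its log2 fold change, -0.91 (SE 0.39), had the largest size and the largest error of the members and did not pass (edgeR adjusted p = 0.145). Leaving out replicate 3 brought it to -1.41 and past the threshold (edgeR adjusted p = 0.0111, over all leave-one-out fits between 0.0111 and 0.410), and leaving out replicate 1 to -0.57. With all libraries DESeq2 called *Ankrd37* lower (log2 fold change -0.90, adjusted p = 0.0278, over the settings with all libraries between 0.0278 and 0.162). It was not called by limma-voom or by edgeR with any other setting that kept all libraries. Other genes hold 21.4% of its stretches, mostly *Lrp2bp* on the other strand, and summed with such genes the log2 fold change was -0.79 (edgeR adjusted p = 0.143).

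**Figure D2:**
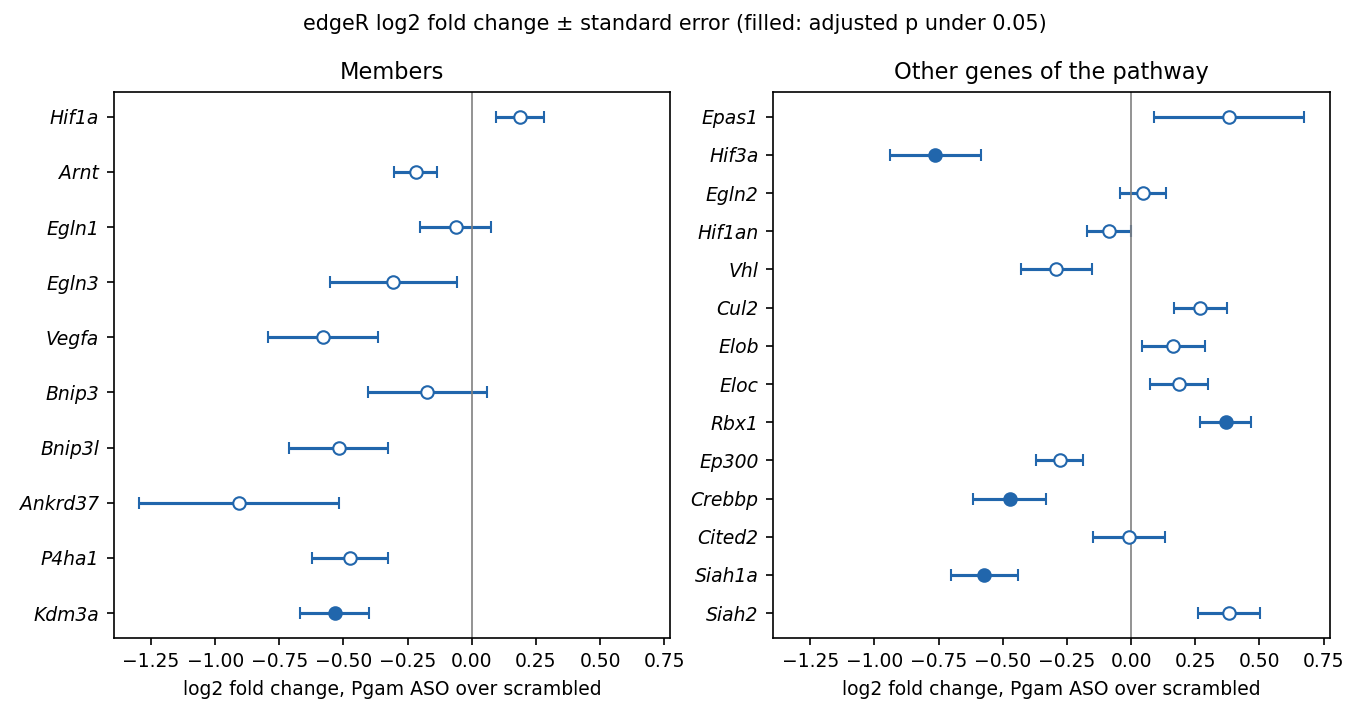
Log2 fold change (horizontal axis, libraries labelled Pgam ASO over scrambled ASO) with its standard error from edgeR for the 10 members (left) and the 14 tested genes of the rest of the pathway (right), with filled points for an adjusted p under 0.05. Kdm3a at -0.53 is the filled member, and Hif3a, Crebbp, Siah1a and Rbx1 are filled on the right.

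Levels can be set side by side only per length. The length used was that of the merged exons of all annotated transcripts, which can exceed that of the transcripts expressed. Whether this moved the order was not tested. Per kilobase of merged exons, *Egln3* had the highest mean level in scrambled libraries, 160 CPM per kb, with a range above that of every other member. *Bnip3* (81.4 CPM per kb) and *Hif1a* (77.1 CPM per kb) followed and overlapped each other. Below them, *Bnip3l* (57.5 CPM per kb) and *Egln1* (56.7 CPM per kb) overlapped as well. *P4ha1* (39.8 CPM per kb), *Vegfa* (25.1 CPM per kb) and *Kdm3a* (19.5 CPM per kb) came next with ranges apart from their neighbours. *Ankrd37* (12.1 CPM per kb) and *Arnt* (11.4 CPM per kb) were last and overlapped, so that the mRNA of the partner subunit was among the scarcest members and that of *Hif1a* among the most abundant. With the *Pgam* label the order was the same but for 3 exchanges of neighbours, *Hif1a* over *Bnip3*, *Egln1* over *Bnip3l* and *Arnt* over *Ankrd37*, and most neighbours overlapped.

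The 3 libraries labelled *Pgam* ASO took the same order in the 8 targets among the members. Differences were measured for each of them from the mean of the scrambled libraries on a log2 scale (after adding 0.5 CPM). Over the 8 targets, sensors included, the median difference was -0.82 in replicate 1, -0.46 in replicate 2 and -0.14 in replicate 3. Replicate 1 was the lowest of all 6 libraries in 8 of 8, beside 3798 of all 14936 tested genes, and replicate 3 was the highest of its label in 8 of 8, beside 5665. Below every scrambled library lay 8 targets in replicate 1, 6 in replicate 2 and 4 in replicate 3, where over all tested genes the numbers were 5626, 5312 and 4666. Among the 1366 genes called lower over the whole table, the medians were -0.83, -0.74 and -0.58. Those genes were picked on this contrast, by a test that favors a small spread between libraries of a label. Their medians therefore describe the libraries only and are no measure for the spread of the targets. What sets replicate 3 apart was not tested.

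**Figure D3:**
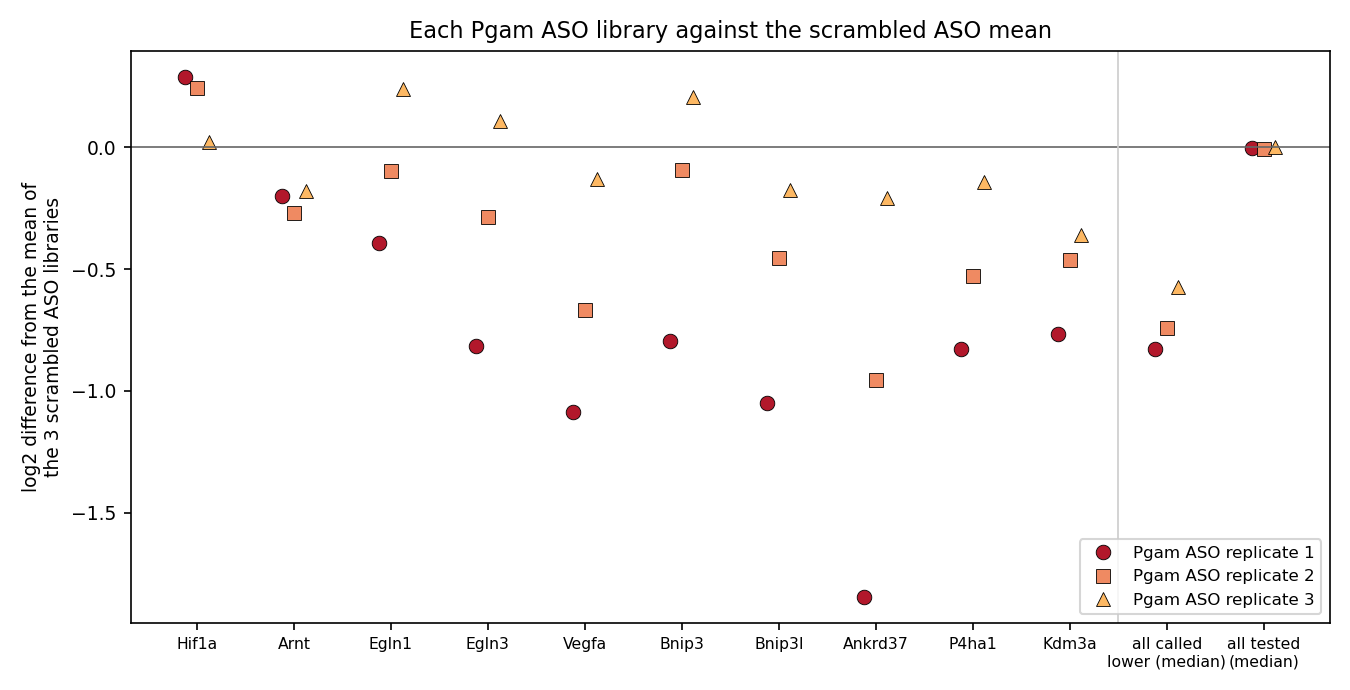
Log2 difference (vertical axis) of each library labelled Pgam ASO from the mean of the 3 scrambled ASO libraries, for each member and, at the right, as the median over all genes called lower and over all tested genes. Replicate 1 is the lowest point in each of the 8 targets, down to -1.85 for Ankrd37, whereas replicate 3 lies between -0.36 for Kdm3a and 0.24 for Egln1.

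**Figure D4:**
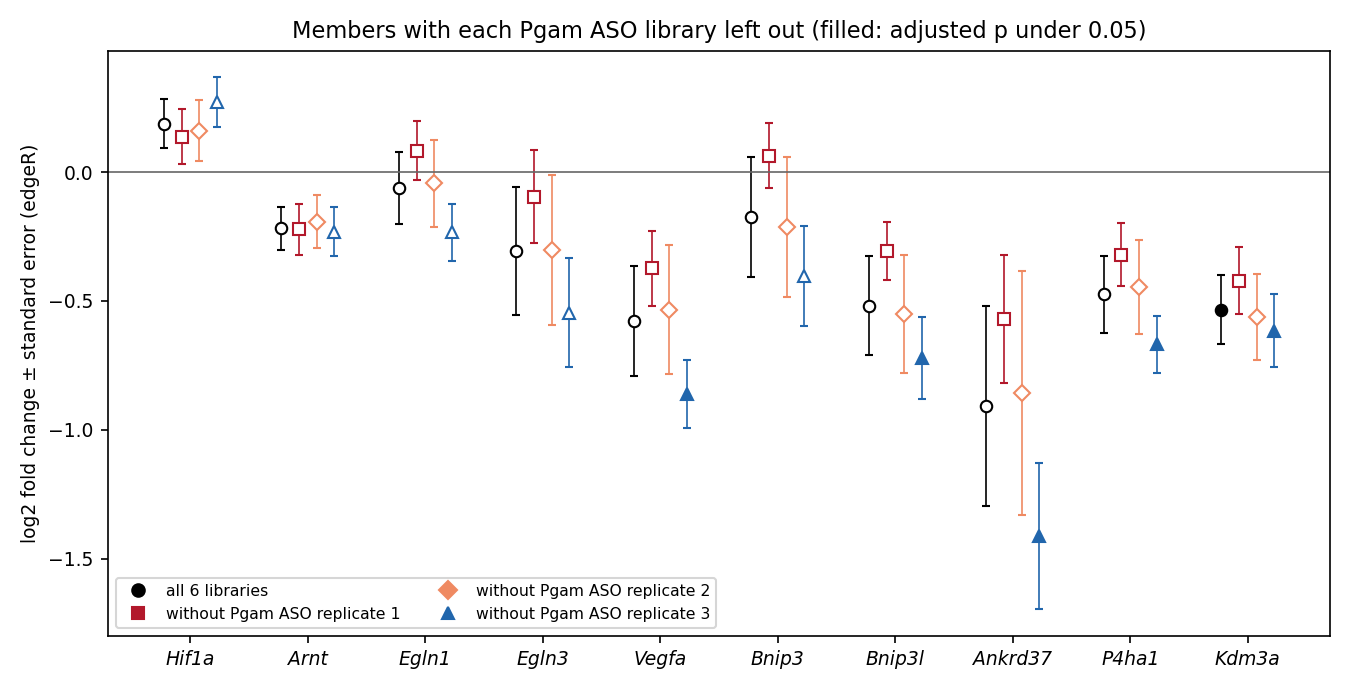
Log2 fold change with its standard error from edgeR (vertical axis) for each member with all 6 libraries and with each library labelled Pgam ASO left out, with filled symbols for an adjusted p under 0.05. Without replicate 3, 5 members pass (Vegfa, Bnip3l, Ankrd37, P4ha1 and Kdm3a), whereas without replicate 1 Bnip3 at 0.064 and Egln1 at 0.082 lie above 0.

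Other genes of the pathway moved in both directions. Of 15 listed, 14 were tested, and 3 were called lower and 1 higher in edgeR (9.15% and 8.03% of all tested genes), with a median log2 fold change of 0.019. *Arnt2* had too few counts. *Hif3a*, which encodes a subunit that can restrain the others, was at 51.6, 48.1 and 49.8 CPM with scrambled ASO and 24.0, 24.4 and 39.6 CPM with the *Pgam* label, all lower (log2 fold change -0.76, SE 0.18, edgeR adjusted p = 0.0226). The coactivator gene *Crebbp* was at 88.0, 111 and 72.9 CPM against 65.9, 59.3 and 70.7 CPM (log2 fold change -0.47, SE 0.14, edgeR adjusted p = 0.0460), and here replicate 3 came just under the lowest scrambled library. That call was not made by limma-voom (adjusted p = 0.0572), nor by edgeR with library size alone (adjusted p = 0.0506) or replicate number as a block (adjusted p = 0.0973). *Siah1a*, a ubiquitin ligase gene that acts on the hydroxylases, fell by 0.57 on the log2 scale (edgeR adjusted p = 0.0196), but it shares 39.5% of its stretches with other genes and fell by 0.26 when summed with them, short of the threshold (edgeR adjusted p = 0.0961). *Rbx1*, the RING subunit of the VHL ligase, was the gene called higher, at 78.1, 71.5 and 90.9 CPM against 107, 102 and 101 CPM (log2 fold change 0.37, SE 0.099, edgeR adjusted p = 0.0326). Neither *Siah1a* (adjusted p = 0.0519) nor *Rbx1* (adjusted p = 0.0669) was called by edgeR when replicate number was a block. With replicate 1 or 2 of either label left out, edgeR called 0 genes of this list, and *Hif3a* then had log2 fold changes between -0.79 and -0.63.

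Among the 10 genes of the pathway that were not called, the other subunit gene *Epas1* was scarce, between 2.42 and 5.03 CPM, with a log2 fold change of 0.38 (SE 0.29). The third prolyl hydroxylase, *Egln2*, had a log2 fold change of 0.046, and *Hif1an*, whose product blocks HIF from its coactivators, one of -0.086. *Vhl* stood at 53.6, 46.6 and 49.0 CPM with scrambled ASO and 31.7, 44.5 and 45.7 CPM with the *Pgam* label, without overlap (log2 fold change -0.29, edgeR adjusted p = 0.160). Its ligase partners *Cul2*, *Elob* and *Eloc* had log2 fold changes of 0.27, 0.16 and 0.19. With 1 library left out these ran from 0.18 to 0.35, from 0.043 to 0.30 and from 0.081 to 0.26. *Epas1* then ran from 0.10 to 0.58 and *Vhl* from -0.38 to -0.14. For the coactivator gene *Ep300* the value was -0.28 (edgeR adjusted p = 0.0592), for *Siah2* 0.38 (edgeR adjusted p = 0.0533), and for the inhibitor gene *Cited2* -0.0088, whose sign changed with the settings. DESeq2 called both *Ep300* (adjusted p = 0.0440, over the settings with all libraries between 0.0440 and 0.131) and *Siah2* (adjusted p = 0.0409, over the same settings between 0.0335 and 0.110). In edgeR *Ep300* (adjusted p = 0.0197) and *Cul2* (adjusted p = 0.0462) also passed without replicate 3 labelled scrambled ASO, and *Siah2* (adjusted p = 0.0265) without replicate 3 labelled *Pgam* ASO.

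A broader list of 39 HIF targets outside glycolysis held calls in both directions. Of its 34 tested genes, edgeR called 3 lower and 2 higher, with a median log2 fold change of -0.12. These are 8.82% and 5.88% of the list, beside 9.15% and 8.03% of all tested genes. *Ndufa4l2*, *Epo*, *Edn1*, *Flt1* and *Lox* had too few counts. *Nt5e*, which encodes the ectoenzyme CD73, was at 195, 214 and 167 CPM with scrambled ASO and 61.4, 72.8 and 92.3 CPM with the *Pgam* label (log2 fold change -1.35, SE 0.15, edgeR adjusted p = 0.00109). It lay far below the scrambled range in all 3 libraries. *Narf* (log2 fold change -0.76, edgeR adjusted p = 0.0261) and the collagen lysyl hydroxylase gene *Plod1* (log2 fold change -0.58, edgeR adjusted p = 0.0362) were also lower without overlap. The transferrin receptor gene *Tfrc* was higher, at 852, 667 and 1037 CPM against 1133, 1320 and 1133 CPM (log2 fold change 0.49, SE 0.15, edgeR adjusted p = 0.0460). *Loxl2*, also higher, rose from 0.506, 0.378 and 1.24 CPM to 4.66, 4.62 and 3.37 CPM (log2 fold change 2.59, edgeR adjusted p = 0.00486), a scarce gene that shares 46.4% of its stretches with others and came to 2.25 when summed with them. *Nt5e* and *Loxl2* kept their calls with any library left out. Without replicate 1 or 2 of either label *Narf*, *Plod1* and *Tfrc* lost theirs (edgeR adjusted p between 0.0688 and 0.171), and *Plod1* (adjusted p = 0.0512) and *Tfrc* (adjusted p = 0.0520) also lost it without replicate 3 labelled *Pgam* ASO. With all libraries *Tfrc* was not called in edgeR by library size alone (adjusted p = 0.0504), nor were *Tfrc* (adjusted p = 0.0771) and *Plod1* (adjusted p = 0.0804) with replicate number as a block. Without replicate 3 labelled *Pgam* ASO edgeR called 10 genes of the list lower and 1 higher, beside 1743 lower and 1576 higher of all 15464 tested in that fit. Without replicate 3 labelled scrambled ASO it called 3 of the list lower and 7 higher, beside 1773 and 1711 of 15508. Below every scrambled library lay 19 of the 34 genes in replicate 1, 16 in replicate 2 and 10 in replicate 3 with the *Pgam* label, beside 5626, 5312 and 4666 of all 14936 tested genes.

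Glycolytic HIF targets showed no shared fall. Of 20 listed genes all were tested, and edgeR called 0 in either direction (of all tested genes 9.15% lower and 8.03% higher). The median log2 fold change was 0.018. Some of the list are poorly measured, as *Pgk1* has 54.7% and *Gapdh* 28.1% of its stretches in common with other genes. *Gapdh* stood at 190, 44.4 and 564 CPM in scrambled replicates 1, 2 and 3 (log2 fold change -0.037, SE 0.91). At an unadjusted p under 0.05 in edgeR, 3 were lower and 1 higher (of all 14936 tested genes 2650 and 2564). At an adjusted p under 0.05 limma-voom called 2 lower and 1 higher (of all tested genes 1351 and 1171). DESeq2 called 0 lower and 1 higher (1659 and 1554). The groups overlapped for 17 of the 20, beside 9042 of all tested genes. Without replicate 3 labelled *Pgam* ASO edgeR called 4 lower and 0 higher, beside 1743 and 1576 of all 15464 genes tested in that fit. Without replicate 3 labelled scrambled ASO it called 0 lower and 2 higher, beside 1773 and 1711 of 15508. In this list too, replicate 1 was the lowest of its label in 19 of 20 genes and replicate 3 the highest in 18 of 20 (5491 and 5665 of all 14936 tested genes), with median differences from the scrambled mean of -0.14, 0.042 and 0.19 in replicates 1, 2 and 3.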

How the data were processed

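The authors deposited estimated counts per Ensembl gene, written as whole numbers without normalization, for all 6 libraries. The submitters' processing notes name Kallisto and GRCm38, and the Kallisto version and annotation are not given in the sources used here. Kallisto divides reads between similar transcripts, so for each listed gene the share of 31-base stretches found in other genes was computed, and counts were summed with genes sharing at least 10% as an alternative. Symbols matched 52073 of 56748 IDs, and coordinates and merged exon lengths came from GENCODE M21.

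The labels were compared in edgeR 4.0.16 (R 4.3.3), with the defaults of filterByExpr (14936 genes kept), TMM scaling (factors between 0.972 and 1.03) and its robust quasi-likelihood fit. Tests were two-sided, p-values were adjusted by Benjamini-Hochberg over all tested genes, and the threshold was 0.05. The procedure was tested on simulated data. CPM are scaled by TMM. Alternatives were DESeq2 1.42.0, limma-voom (limma 3.58.1), RLE size factors, library size alone, no filter on low counts, a minimum of 10 counts per library, a block for replicate number, and each library left out. Ratios were compared by an exact permutation test, and from raw counts with a prior of 0.5.

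No libraries agreed within sampling noise (chi-square per degree of freedom from 7.39 to 27.1 within a label). Genes named are the members, *Pgam1*, *Pgam2*, *Foxp3*, the tested pathway genes, called targets (up to 8 a direction and list) and listed genes with too few counts. Markers with a fold change, *Pgk1*, *Gapdh* and the genes of the last part were named after their values were seen. The members and lists were chosen with earlier results of these data known.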

Additional observations from a re-analysis of the deposited data

How the results depend on the processing

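For 46 of the genes named, settings other than leaving out a library (329 comparisons) gave 284 on the same side of the threshold, 32 newly past it, 12 no longer past it and 1 of the other sign. Leaving out a library (276 comparisons) gave 212, 18, 42 and 4. *Cited2* changed sign with no filter (0.0027), without replicate 2 labelled scrambled ASO (0.093) and without replicate 1 labelled *Pgam* ASO (0.12), where *Bnip3* (0.064) and *Egln1* (0.082) did too. With a library left out the lowest values were -0.14 for *Cited2*, -0.40 for *Bnip3* and -0.23 for *Egln1*. None of these was called, and the cause was not tested.

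Counts called are given where they moved by more than 1.5 times, with a few that did not beside them. Members lower were 5 with DESeq2, 2 with limma-voom and 4 with no filter. Pathway genes higher were 2 with DESeq2 and 2 with no filter, and lower 4 with DESeq2, 3 with no filter and 2 with limma-voom. Other targets lower were 5 with DESeq2, 8 with limma-voom and 6 with no filter, and higher 4 with DESeq2, 5 with no filter and 1 with library size alone or at least 10 counts in every library. Glycolytic targets were 1 higher with DESeq2, limma-voom and no filter, and 2 lower with limma-voom. All genes were 1900 lower and 1832 higher with no filter, which tests more genes. With replicate number as a block, 755 genes were lower and 480 higher, and members 3 lower, pathway genes 1 lower and 0 higher, and other targets 4 lower and 1 higher. Libraries share only a number: deviations correlated at 0.0534, -0.0340 and -0.237 for numbers 1, 2 and 3, and not every library correlated best with its own number.

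Leaving out each library gave 231 to 1773 genes lower and 160 to 1711 higher, members 0 to 5 lower and 0 to 0 higher, pathway genes 0 to 4 lower and 0 to 2 higher, other targets 1 to 10 lower and 1 to 7 higher, and glycolytic targets 0 to 4 lower and 0 to 2 higher. The log2 ratios kept their signs, from 0.28 to 0.38 for *Bnip3* over *Bnip3l*, -0.38 to -0.13 for *Egln3* over *Egln1* and 0.32 to 0.50 for *Hif1a* over *Arnt*, and the block, which cannot move a difference of means between groups of equal size, left them at 0.33, -0.25 and 0.40. With fewer libraries fewer residual degrees of freedom remain. Counts under the floor limit *Arnt2* and the scarce markers.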

Other observations

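Among the listed targets other than the 10 members, 8 that edgeR did not call with all libraries were chosen after their values were seen, because their labels did not overlap and replicate 1 labelled *Pgam* ASO lay more than 1 log2 unit below the scrambled mean. They are *Ndrg1*, *Vldlr*, *Slc2a3*, *Cxcr4*, *Ccng2*, *Zfp395*, *Pdk1* and *Plod2*. *Ndrg1*, a gene known for its induction in hypoxia, was at 209, 210 and 226 CPM with scrambled ASO and 33.7, 76.6 and 158 CPM in replicates 1, 2 and 3 labelled *Pgam* ASO. The scrambled libraries lay close together while the others spread widely, so that the log2 fold change of -1.27 had a standard error of 0.52 (edgeR adjusted p = 0.148).

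The glucose transporter gene *Slc2a3* was at 490, 496 and 552 CPM against 126, 243 and 401 CPM, and *Pdk1*, whose product restrains pyruvate entry into mitochondria, at 274, 330 and 248 CPM against 90.9, 152 and 216 CPM. Both followed the same order of libraries. The chemokine receptor gene *Cxcr4* was at 19.1, 26.8 and 24.4 CPM against 4.22, 9.43 and 16.6 CPM, and the lipoprotein receptor gene *Vldlr* at 24.3, 19.9 and 24.1 CPM against 2.86, 9.11 and 13.6 CPM. In each, replicate 3 was the nearest to the scrambled libraries. Other tools called some of the 8 with all libraries (limma-voom all but *Ccng2*, DESeq2 *Plod2* and *Zfp395*). The genes were picked on the same contrast, so these calls in part restate that choice. The low replicate 1, the wide spread and the order of libraries in these genes in part restate it too.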
